A study of Rattus norvegicus with 9 samples.

Results

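The Rab small GTPases were followed through 12 h of phorbol ester treatment of cultured rat horizontal basal cells. Members were taken by name: every gene whose symbol is Rab followed by a number and at most 1 letter. This gave 55 of the 17315 genes counted, of which 50 had enough reads to be tested. The horizontal basal cell is the reserve stem cell of the olfactory epithelium, which is mostly quiescent until the epithelium is injured. The cells were primary dissociates from olfactory epithelium of SD rats, grown to passage 7, so what was measured is cells in culture and not the tissue. There were 3 groups of 3 libraries each. They were cells in vehicle (0.1% DMSO, labelled time 0), cells after 6 h in 50 nM PMA (phorbol 12-myristate 13-acetate, an activator of protein kinase C) and cells after 12 h in 50 nM PMA. The question the design puts is how gene expression moves over the first hours of activation. The vehicle cells carry a single time label, so PMA and the hours in culture cannot be told apart. No label ties the 3 libraries of a group to separate dishes or rats. The p-values therefore speak only to the spread among these libraries, which may be technical.

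Rab proteins are small GTP-binding switches that give each membrane compartment of the cell its identity. A guanine nucleotide exchange factor (GEF) loads a Rab with GTP on its own membrane, the GTP-bound Rab recruits effectors that move, tether or fuse vesicles, and a GTPase-activating protein (GAP) turns it off. A GDP dissociation inhibitor (GDI) then takes the prenylated Rab off the membrane and carries it back. Different Rabs work at the endoplasmic reticulum and Golgi, at early and recycling endosomes, at late endosomes and lysosomes, and at secretory granules and the cell surface. In a basal cell, endosomal Rabs handle, among other cargo, the integrins and junction proteins that hold it to the basement membrane and to its neighbours.

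Between 13601635 and 19001819 reads fell in genes in each library. Levels below are CPM, a library's counts scaled to a common total of reads in genes after TMM correction, which corrects for a few abundant genes taking a different share of each library. Because transcript length was not used, a CPM is compared only within a gene. Fold changes are log2 values with their standard errors (SE) from edgeR's quasi-likelihood test, and a gene rose or fell where its p, adjusted by Benjamini-Hochberg over all 10128 tested genes, was under 0.05. The scaling weighed on small changes: TMM factors were 1.28 to 1.31 in vehicle, 0.879 to 0.911 at 6 h and 0.848 to 0.880 at 12 h. All 8 basal cell markers looked for were present, and their summed level was 15727 to 18611 CPM in vehicle, 2820 to 3501 CPM at 6 h and 4424 to 5115 CPM at 12 h. Not every member followed that sum: Icam1 rose at both times (0.30 and 1.33) and Egfr rose at 12 h (0.64). The summed level of 10 genes of G2 and mitosis was 243 to 944 CPM in vehicle, where the libraries were unlike each other, 27.3 to 32.9 CPM at 6 h and 12.0 to 15.4 CPM at 12 h. The summed level of the 8 sustentacular and gland markers found, of which 5 stayed under 1 CPM in every group, was 1207 to 1412 CPM in vehicle, 1954 to 2015 CPM at 6 h and 2189 to 2530 CPM at 12 h, and that of 7 immune markers 26.7 to 29.2, 70.9 to 72.9 and 83.7 to 95.7 CPM. Cd68 made up most of the latter (means of 19.6, 69.4 and 85.6 CPM), while Cd14 fell (-2.40 and -1.25). The 12 neuronal markers summed to 182 to 212, 111 to 118 and 186 to 201 CPM, with no read for Neurog1. Of the sustentacular and gland markers, Cyp2g1, Cyp1a2 and Ermn had no read, and only 3 were tested, all called higher at both times. Of the fibroblast markers 7 of 9, of the immune markers 5 of 7 and of the endothelial and glial markers 7 of 8 stayed under 1 CPM in every group, and Ptprc, Col1a2, Pdgfrb and Lum had no read. The part of these movements in the Rab results was not tested. In RNA from a whole culture, fewer cells of a kind and less RNA per cell cannot be told apart.

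With TMM scaling more Rabs were higher than lower under PMA at both times, an order that turned with library totals alone. At 6 h, 22 of the 50 tested Rabs were higher than in vehicle, 13 were lower and 15 did not pass. This is 70%, beside 76.8% of all tested genes. At 12 h, 32 were higher, 11 lower and 7 did not pass, 86% beside 75.8% of all tested genes. Of all tested genes 37.8% were higher and 39.0% lower at 6 h, and 37.7% and 38.2% at 12 h. The median log2 fold change of the tested Rabs was 0.12 at 6 h and 0.47 at 12 h, where the medians of all tested genes were -0.03 and -0.02. A change of at least 2-fold was called for 12 higher and 8 lower Rabs at 6 h, beside 39.4% of all tested genes, and for 12 higher and 10 lower at 12 h, beside 38.4%. The vehicle and PMA libraries did not overlap for 36 Rabs at 6 h (79.0% of all tested genes) and for 43 at 12 h (78.7%).

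The split of higher against lower depended on the scaling, because the median of all genes moved with it. With upper-quartile scaling, which shifted that median by -0.257 at 6 h and -0.270 at 12 h, 21 Rabs were higher and 20 lower at 6 h, and 25 and 13 at 12 h. With library totals alone, which shifted it by -0.537 and -0.580, 14 were higher and 26 lower at 6 h, and 14 and 20 at 12 h. Under TMM, upper-quartile scaling and library totals alone, 32 of 50 Rabs lay above the median gene at 6 h and 37 of 50 at 12 h. A change of scaling shifts every gene by about the same amount. These counts could therefore hardly move, and they do not test the scaling. Beside the members named below whose sign turned, library totals alone ended the calls, with the sign kept, of Rab1a (0.051 and 0.14) and Rab11b (0.14 and 0.17) at both times, of Rab11a (0.100), Rab33b (0.12) and Rab40c (0.27) at 6 h, and of Rab1b (0.031), Rab2a (0.16), Rab15 (0.097) and Rab9b (1.63) at 12 h. Rab12, Rab20 and Rab31 at 12 h are given below.

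Reads of all 55 genes together came to 0.444% to 0.461% of the reads in genes in vehicle, 0.501% to 0.513% at 6 h and 0.547% to 0.575% at 12 h. None of these ranges overlapped. As TMM-scaled levels the sum was 3486 ± 33.6 CPM (SD, n = 3) in vehicle, 5666 ± 46.0 at 6 h and 6496 ± 40.5 at 12 h. The log2 difference from vehicle was 0.70 at 6 h and 0.90 at 12 h, with an exact two-sided permutation p of 0.1 for each, the smallest that 3 against 3 libraries allow. The size of these differences depends on the scaling. The shares of reads above, which use no TMM factor, differed by less.

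**Figure D1:**
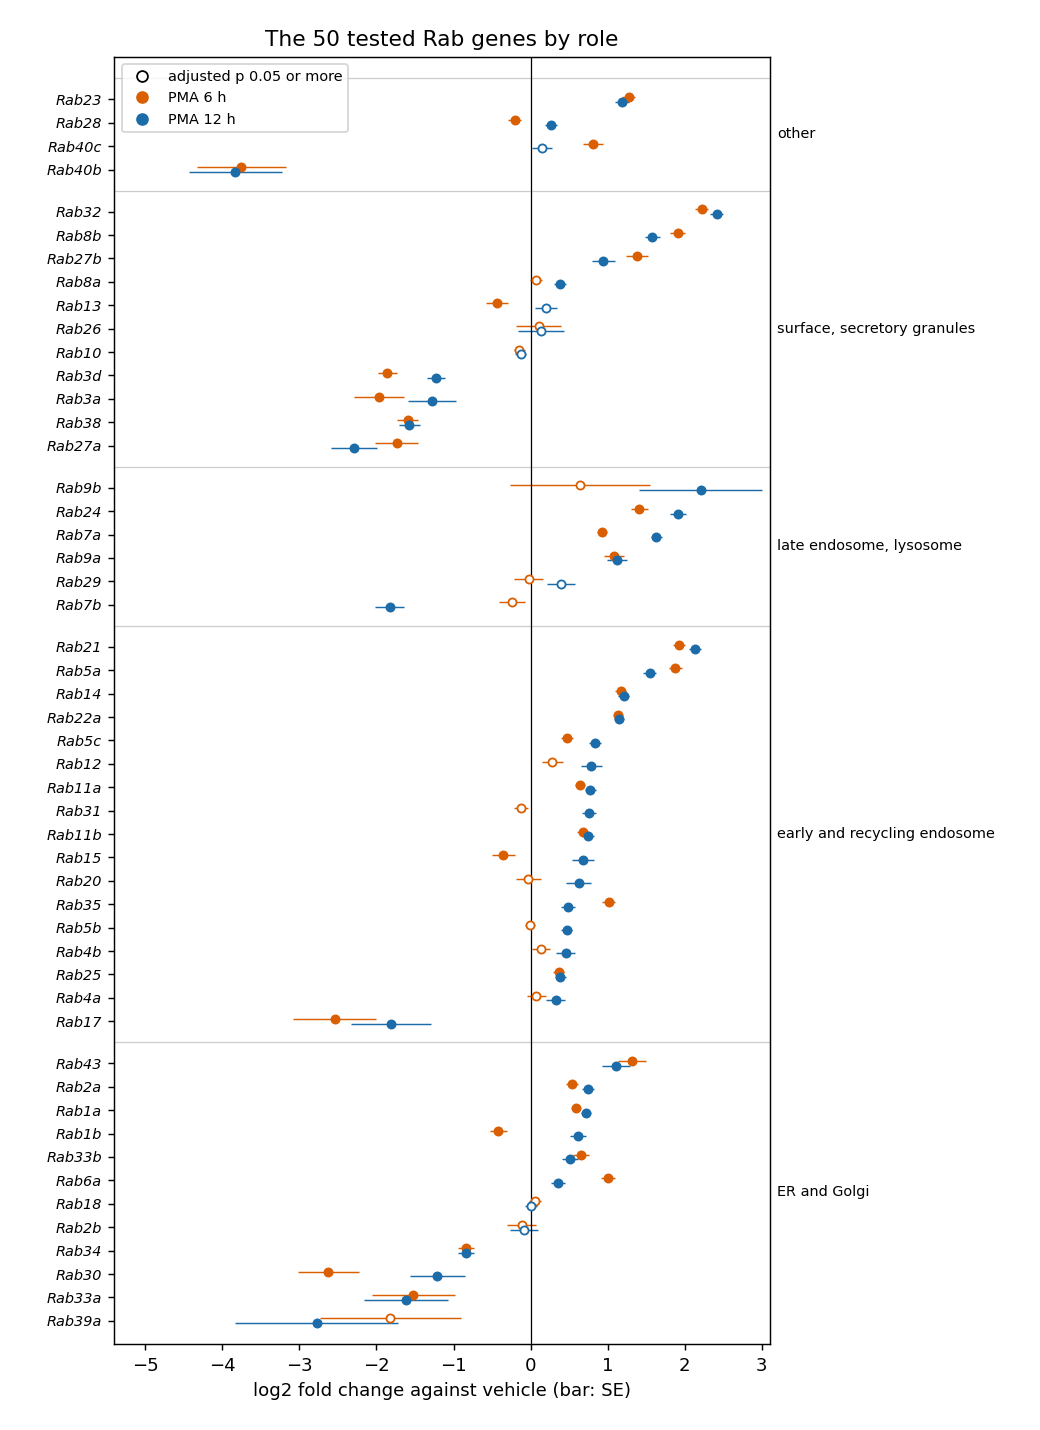
Log2 fold change against vehicle of the 50 tested Rab genes at 6 h and at 12 h of PMA, grouped by the compartment where each protein works; bars are the standard errors of the fit and open points did not pass. At 12 h, 16 of 17 early and recycling endosome Rabs were called higher, with a median of 0.75, while the secretory and surface group held 4 called higher and 4 called lower of 11. Of all tested genes 37.7% were called higher and 38.2% lower at 12 h.

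The early and recycling endosome Rabs were mostly higher under PMA by 12 h. Of 17 tested, 9 were higher and 2 lower at 6 h, and 16 were higher and 1 lower at 12 h, with a median log2 fold change of 0.75 at 12 h. The shares were 52.9% and 11.8% at 6 h, beside 37.8% and 39.0% of all tested genes. At 12 h they were 94.1% and 5.88%, beside 37.7% and 38.2%. Under upper-quartile scaling the counts were 8 higher and 4 lower at 6 h, and 13 and 1 at 12 h. They were 5 and 8 with library totals alone at 6 h, which turns the order, and 6 and 2 at 12 h. Rab21, an early endosome Rab that carries integrins, had the largest rise of the 17 at both times. Its level was 133, 141 and 147 CPM in the vehicle libraries, 549, 545 and 504 CPM at 6 h and 586, 671 and 590.0 CPM at 12 h. Every PMA library was above every vehicle library, and the log2 fold change was 1.93 ± 0.08 (adjusted p = 4.7e-13) at 6 h and 2.13 ± 0.08 (adjusted p = 1.4e-13) at 12 h.

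Rab5a, a master regulator of early endosome fusion, was highest at 6 h. It had 41.3, 40.7 and 42.4 CPM in the vehicle libraries, 146, 143 and 167 CPM at 6 h and 123, 127 and 113 CPM at 12 h. The 3 groups did not overlap, with a rise of 1.88 ± 0.08 (adjusted p = 1.3e-12) at 6 h and 1.54 ± 0.08 (adjusted p = 2.0e-11) at 12 h. For its close relatives, Rab5c rose by 0.47 and 0.84, and Rab5b changed by -0.0036 at 6 h (adjusted p = 0.96) and rose by 0.47 at 12 h; with library totals alone Rab5c was -0.065 at 6 h and Rab5b -0.12 at 12 h. Rab22a and Rab14, which act between early endosomes, recycling endosomes and the Golgi, rose by 1.14 and 1.17 at 6 h and by 1.14 and 1.21 at 12 h. Rab35, which returns cargo from endosomes to the plasma membrane, rose by 1.01 at 6 h and by 0.48 at 12 h, the latter -0.10 with library totals alone.

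The recycling Rabs of the Rab11 group were higher at both times with TMM scaling. Rab11a rose by 0.64 at 6 h and 0.78 at 12 h, and Rab11b by 0.68 and 0.75. Rab25, the epithelial member of that group, rose by 0.36 and 0.38, values that became -0.18 and -0.20 with library totals alone. Rab4a and Rab4b, the fast recycling Rabs, had 0.076 and 0.13 at 6 h (adjusted p = 0.59 and 0.32) and rose by 0.32 and 0.45 at 12 h. The Rab4a call at 12 h was lost without vehicle replicate 2 or 3 or 12 h replicate 1 or 2 (0.26 to 0.34), and with library totals alone both were below 0 (-0.26 and -0.13 at 12 h). Rab12, Rab20 and Rab31 did not pass at 6 h (0.28, -0.029 and -0.13) and rose at 12 h by 0.79, 0.62 and 0.76; with library totals alone these 12 h values were 0.21, 0.046 and 0.18 and did not pass. Every 6 h library of Rab12 was nonetheless above every vehicle library. At 6 h Rab31 passed as lower without vehicle replicate 1 (-0.25), and Rab12 as higher without 12 h replicate 2 (0.28). Rab15 fell by 0.35 at 6 h and rose by 0.68 at 12 h; the 6 h call was lost without vehicle replicate 1 (-0.31) or 2 (-0.25) or 6 h replicate 1 (-0.30) or 3 (-0.36).

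Rab17, a Rab of polarised epithelia that works in apical recycling and transcytosis, was the one member of the endosomal group to fall at both times. It had 2.24, 2.19 and 2.44 CPM in the vehicle libraries, 0.0692, 0.220 and 0.809 CPM at 6 h and 0.680, 0.726 and 0.520 CPM at 12 h. These are low levels, but no PMA library reached a vehicle library. The log2 fold change was -2.54 ± 0.54 (adjusted p = 3.8e-04) at 6 h and -1.81 ± 0.51 (adjusted p = 0.0041) at 12 h. Without 6 h replicate 3, the highest of its group, the 6 h value was -3.95, and the difference of 12 h from 6 h, 0.73 and not passed over all libraries, became 2.13 and passed.

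Among the late endosome and lysosome Rabs, 3 of 6 were higher and none lower at 6 h, and 4 were higher and 1 lower at 12 h. The shares of all tested genes were 37.8% higher and 39.0% lower at 6 h, and 37.7% and 38.2% at 12 h. Under upper-quartile scaling the counts for these Rabs were 3 higher and 1 lower at 6 h, and 4 and 1 at 12 h. With library totals alone they were 3 and 2 at 6 h, and 3 and 1 at 12 h. Rab7a, which drives the fusion of late endosomes with lysosomes, rose step by step. Its level was 325, 329 and 334 CPM in the vehicle libraries, 615, 644 and 614 CPM at 6 h and 1012, 1021 and 1028 CPM at 12 h. The 3 groups were far apart and tight within themselves, and the log2 fold change was 0.92 ± 0.07 (adjusted p = 9.7e-10) at 6 h and 1.63 ± 0.07 (adjusted p = 6.2e-13) at 12 h. Rab24, linked to autophagy, rose in the same order. It had 58.0, 51.1 and 47.9 CPM in the vehicle libraries, 138, 149 and 132 CPM at 6 h and 202, 166 and 223 CPM at 12 h, a log2 fold change of 1.41 ± 0.10 (adjusted p = 1.8e-09) at 6 h and 1.91 ± 0.11 (adjusted p = 4.5e-11) at 12 h. Its count leaves out reads that also lie on another gene: the sum of both strand columns was 1.38 times the unstranded count, and with that sum the changes were 1.11 and 1.61.

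Rab7b, a separate lysosomal Rab, went the other way, and with TMM scaling it was called only at 12 h. It had 15.0, 13.0 and 14.5 CPM in the vehicle libraries, 13.1, 9.99 and 12.8 CPM at 6 h and 4.70, 3.34 and 3.90 CPM at 12 h. The 6 h and vehicle libraries overlapped (-0.24 ± 0.17, adjusted p = 0.20), and every 12 h library was below all others (-1.83 ± 0.19, adjusted p = 1.1e-07). With upper-quartile scaling (-0.50) and with library totals alone (-0.78), Rab7b passed as lower at 6 h. Rab9a, which returns receptors from late endosomes to the trans-Golgi, rose by 1.08 and 1.11. Rab9b was close to the limit of detection, at 0.475, 0.0859 and 0.159 CPM in the vehicle libraries, 0.692, 0.514 and 0 CPM at 6 h and 0.544, 1.23 and 1.73 CPM at 12 h. Its 12 h value of 2.21 ± 0.80 (adjusted p = 0.019) passed, but the call was lost without vehicle replicate 2 (1.79) or 3 (2.01) or 12 h replicate 3 (1.83), and the value was 3.18 without vehicle replicate 1. Rab29, a Golgi and lysosome Rab that recruits the kinase LRRK2, did not pass at either time (-0.027 and 0.39), but passed at 12 h without vehicle replicate 1 (0.57). It also passed at 12 h with the replicate number as a block (0.40) and under limma-voom (0.40).

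Of 11 tested secretory and surface Rabs, 3 were higher and 5 lower at 6 h, and 4 were higher and 4 lower at 12 h. These are shares near those of all tested genes (37.8% higher and 39.0% lower at 6 h, 37.7% and 38.2% at 12 h). The counts were 3 higher and 7 lower at both times with library totals alone, and under upper-quartile scaling 3 and 7 at 6 h and 3 and 5 at 12 h. Rab32 and Rab38 are sister genes that build melanosomes and other lysosome-related organelles, and Rab32 also sits on mitochondria. Rab32 had 76.2, 77.7 and 81.9 CPM in the vehicle libraries, 365, 375 and 359 CPM at 6 h and 380.0, 472 and 407 CPM at 12 h. It was 4.66-fold higher than vehicle at 6 h and 5.34-fold at 12 h, a log2 fold change of 2.22 ± 0.08 (adjusted p = 1.4e-13) and 2.42 ± 0.08 (adjusted p = 5.6e-14). Rab38 had 35.1, 29.4 and 32.2 CPM in the vehicle libraries, 10.7, 9.92 and 11.3 CPM at 6 h and 9.80, 10.7 and 12.1 CPM at 12 h, a log2 fold change of -1.60 ± 0.13 (adjusted p = 6.9e-09) and -1.58 ± 0.13 (adjusted p = 9.7e-09). For both genes every PMA library lay outside the vehicle range, in opposite directions.

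Rab27a and Rab27b, which dock secretory granules and exosome-releasing endosomes at the plasma membrane, made a second such pair. Rab27a had 8.63, 7.05 and 5.47 CPM in the vehicle libraries, 1.73, 2.35 and 2.25 CPM at 6 h and 1.91, 1.31 and 1.04 CPM at 12 h. It fell at both times (-1.74 ± 0.28, adjusted p = 2.2e-05 and -2.29 ± 0.30, adjusted p = 1.9e-06). Rab27b had 13.8, 12.0 and 14.2 CPM in the vehicle libraries, 30.3, 35.1 and 38.4 CPM at 6 h and 22.2, 31.0 and 23.6 CPM at 12 h. It rose at both (1.38 ± 0.14, adjusted p = 1.0e-07 and 0.94 ± 0.14, adjusted p = 1.2e-05), with no overlap between vehicle and PMA for either gene.

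The 2 tested Rab3 genes, of a group known for calcium-triggered release of vesicles and granules, fell. Rab3d had 46.9, 50.1 and 49.2 CPM in the vehicle libraries, 14.0, 14.3 and 12.0 CPM at 6 h and 17.8, 21.6 and 23.2 CPM at 12 h, with a log2 fold change of -1.86 ± 0.12 (adjusted p = 2.8e-10) at 6 h and -1.23 ± 0.12 (adjusted p = 5.3e-08) at 12 h. Rab3a had 10.4, 6.96 and 6.59 CPM in the vehicle libraries, 1.52, 3.23 and 1.45 CPM at 6 h and 4.01, 3.49 and 2.25 CPM at 12 h, with -1.97 ± 0.32 (adjusted p = 2.6e-05) and -1.28 ± 0.31 (adjusted p = 0.0011). Both were lowest at 6 h, and for Rab3d the partial return by 12 h passed the test (0.64 ± 0.13, adjusted p = 4.7e-04). That of Rab3a (0.68) passed only without 6 h replicate 2 (1.14). Rab8b, a Rab of polarised exocytosis, had 21.7, 17.9 and 19.3 CPM in the vehicle libraries, 72.0, 77.3 and 71.9 CPM at 6 h and 59.6, 57.0 and 59.4 CPM at 12 h and rose by 1.91 ± 0.10 (adjusted p = 6.4e-12) and 1.58 ± 0.10 (adjusted p = 9.6e-11). Rab8a had 0.075 at 6 h and rose by 0.38 at 12 h (-0.46 and -0.20 with library totals alone). Rab10 and Rab26 did not pass at either time, though Rab10 passed as lower at 6 h without vehicle replicate 3 (-0.18) or 6 h replicate 3 (-0.19). Rab13, a tight junction Rab, fell at 6 h (-0.44 ± 0.14, adjusted p = 0.010; -0.29 and not passed without 6 h replicate 3) and was 0.20 at 12 h (adjusted p = 0.20).

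**Figure D2:**
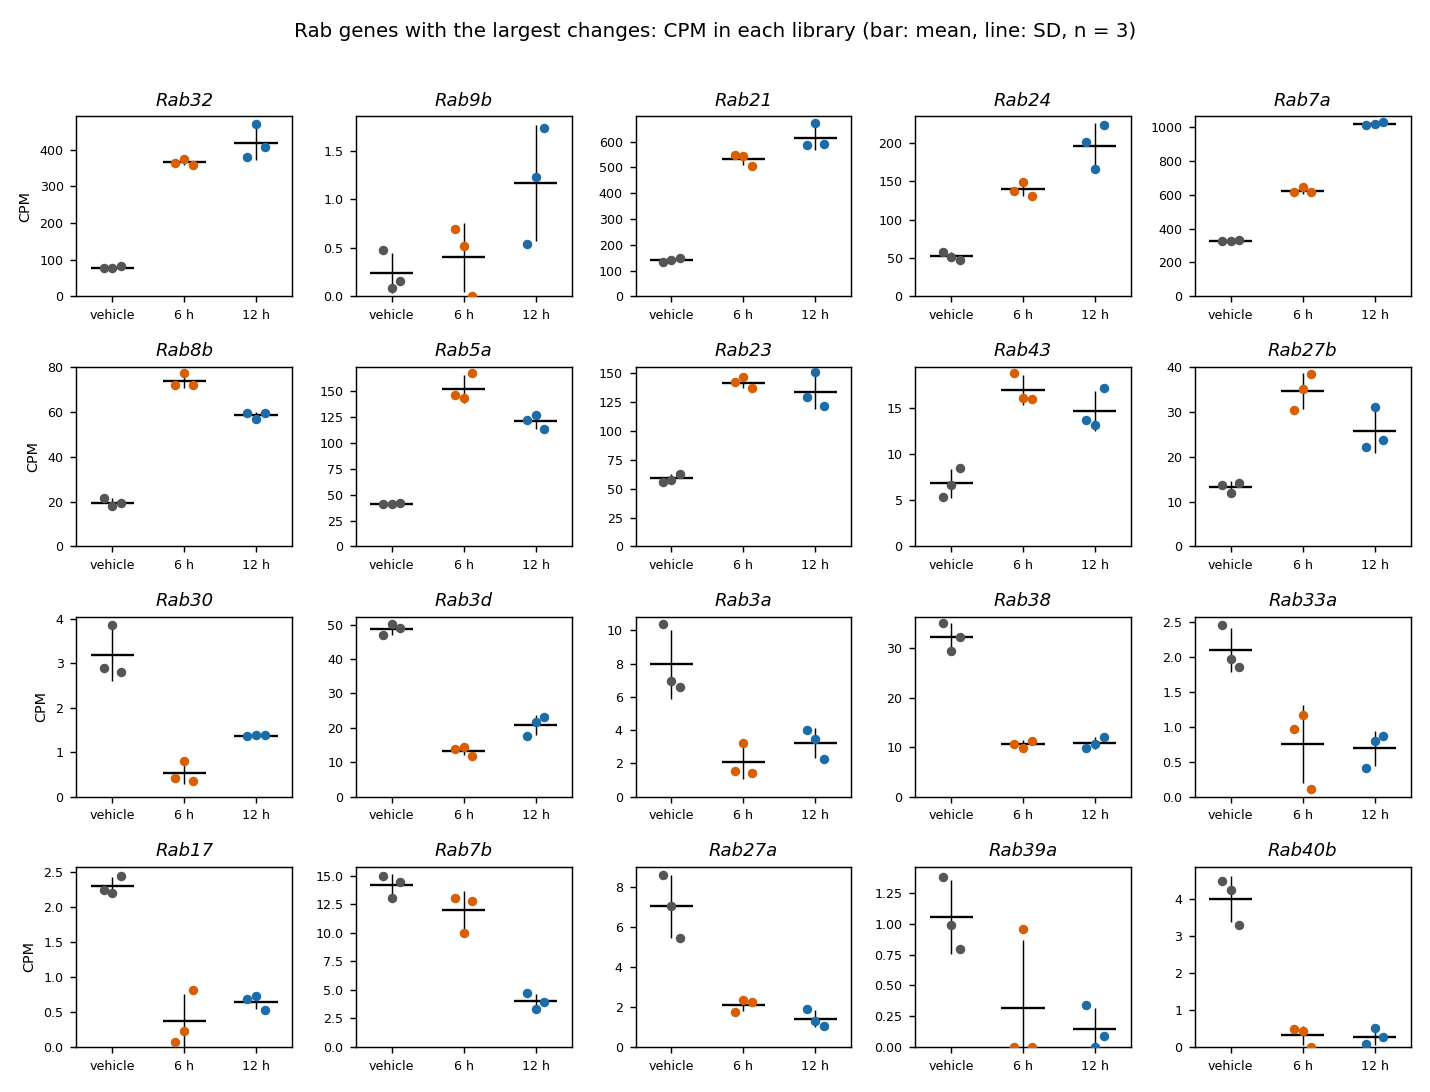
TMM-scaled CPM, each panel on its own axis from 0, of the 20 Rab genes given library by library (points, 3 in each group), with a bar at the group mean and a line for 1 SD to either side. Rab32 went from 76.2 to 81.9 CPM in vehicle to 359 CPM or more in every PMA library, while Rab38 went from 29.4 CPM or more to 12.1 CPM or less.

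At the endoplasmic reticulum and Golgi, Rabs moved both ways. Of 12 tested, 5 were higher and 4 lower at 6 h, and 6 were higher and 4 lower at 12 h. At 6 h the shares (41.7% and 33.3%) were near the 37.8% and 39.0% of all tested genes. At 12 h they were 50% and 33.3%, beside 37.7% and 38.2%. Under upper-quartile scaling the counts were 5 and 6 at 6 h, and 4 and 5 at 12 h. With library totals alone they were 2 and 7 at 6 h, and 1 and 7 at 12 h. Rab1a, needed for transport from the endoplasmic reticulum to the Golgi, rose by 0.59 and 0.72. Rab1b fell by 0.42 at 6 h and rose by 0.61 at 12 h. Rab2a rose by 0.53 and 0.75, and Rab6a, which runs retrograde Golgi traffic, by 1.00 and 0.36. With library totals alone Rab2a at 6 h was -0.0048 and Rab6a at 12 h was -0.22. Rab18, a lipid droplet and endoplasmic reticulum Rab, and Rab2b did not pass at either time.

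Rab43, a Golgi Rab, had 5.39, 6.62 and 8.50 CPM in the vehicle libraries, 18.8, 16.1 and 16.0 CPM at 6 h and 13.7, 13.1 and 17.2 CPM at 12 h, and was higher in every PMA library (1.31 ± 0.18, adjusted p = 3.6e-06 and 1.10 ± 0.18, adjusted p = 3.0e-05). Rab30, also of the Golgi, had 2.89, 3.87 and 2.81 CPM in the vehicle libraries, 0.415, 0.808 and 0.347 CPM at 6 h and 1.36, 1.38 and 1.39 CPM at 12 h. It fell sharply by 6 h (-2.62 ± 0.40, adjusted p = 1.2e-05) and stood in between at 12 h (-1.21 ± 0.35, adjusted p = 0.0051). Rab34, which positions lysosomes and takes part in building cilia, fell by 0.84 at both times. Rab33a had 2.46, 1.98 and 1.86 CPM in the vehicle libraries, 0.969, 1.18 and 0.116 CPM at 6 h and 0.408, 0.799 and 0.867 CPM at 12 h, against which its relative Rab33b, of the Golgi and autophagosome, rose by 0.66 and 0.51 (-0.069 at 12 h with library totals alone). The Rab33a fall was -1.52 ± 0.53 (adjusted p = 0.016) and -1.61 ± 0.55 (adjusted p = 0.013), calls that were lost without 6 h replicate 3 (-0.98) and without 12 h replicate 1 (-1.33). Rab39a, at 1.38, 0.988 and 0.797 CPM in the vehicle libraries, 0, 0.955 and 0 CPM at 6 h and 0.340, 0 and 0.0867 CPM at 12 h, passed at 12 h alone (-2.77 ± 1.06, adjusted p = 0.027); its 6 h value of -1.82 passed without 6 h replicate 2, which leaves no read in that group. The 12 h call was lost without vehicle replicate 1 (-2.53) or 2 (-2.82) or 12 h replicate 2 (-2.20) or 3 (-2.55), and the value was -4.50 without 12 h replicate 1.

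The remaining group holds Rabs tied to cilia or to protein degradation. Rab23, a negative regulator of Hedgehog signalling, had 55.6, 57.8 and 63.1 CPM in the vehicle libraries, 142, 146 and 137 CPM at 6 h and 129, 151 and 122 CPM at 12 h. It rose at 6 h (1.27 ± 0.09, adjusted p = 4.8e-10) and 12 h (1.19 ± 0.09, adjusted p = 1.3e-09), and no difference between the times passed (-0.082 ± 0.09, adjusted p = 0.45). Rab40b and Rab40c carry a SOCS box and work as adaptors of a Cullin-5 ubiquitin ligase. Rab40b had 4.49, 4.25 and 3.29 CPM in the vehicle libraries, 0.484, 0.441 and 0 CPM at 6 h and 0.0680, 0.508 and 0.260 CPM at 12 h, and its fall of -3.75 ± 0.58 (adjusted p = 1.6e-05) at 6 h and -3.83 ± 0.60 (adjusted p = 1.8e-05) at 12 h was the largest in the family at both times among called members. Without 6 h replicate 3 the 6 h value was -3.11, and without 12 h replicate 2 the 12 h value was -4.64. Rab40c rose at 6 h by 0.81 and was 0.15 at 12 h (adjusted p = 0.29). Rab28, a ciliary Rab, fell by 0.21 at 6 h and rose by 0.27 at 12 h; the 6 h call was lost without vehicle replicate 1 or 2 or 6 h replicate 1 or 2, with -0.17 to -0.21, and the 12 h value was -0.31 with library totals alone.

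The 5 members left out of the tests had few reads over all 9 libraries: 63 for Rab19, 45 for Rab6b, 13 for Rab3b, 1 for Rab3c and none for Rab36. In the fit without a filter on low counts 1 of them passed: Rab6b, with 6 reads in vehicle, 28 at 6 h and 11 at 12 h, had a log2 fold change of 2.63 ± 0.96 (adjusted p = 0.017) at 6 h. Rab19 had 39, 16 and 8 reads, with every 6 h library below every vehicle library and every 12 h library below both, but did not pass there (-0.78 at 6 h and -1.59 at 12 h, adjusted p = 0.40 and 0.11). Rab3b and Rab3c belong to the neuronal Rab3 group and Rab6b is the brain form of Rab6.

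Between 6 h and 12 h, 18 Rabs were higher at 12 h, 7 were lower and 25 did not pass, 50% called beside 51.1% of all tested genes (25.3% higher and 25.8% lower). The 8 largest called differences were those of Rab7b (-1.59), Rab30 (1.41), Rab15 (1.03), Rab1b (1.03), Rab31 (0.89), Rab7a (0.71), Rab40c (-0.66) and Rab20 (0.65). The Rab30 call was lost without 6 h replicate 3 (1.17). Rab1b crossed the vehicle level between these times. It had 40.7 ± 3.30 CPM (SD, n = 3) in vehicle, 30.5 ± 1.31 at 6 h and 62.3 ± 7.36 at 12 h, and its 6 h libraries lay below and its 12 h libraries above all vehicle libraries (-0.42 ± 0.11, adjusted p = 0.0017 and 0.61 ± 0.10, adjusted p = 3.9e-05).

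Reading the 3 tests together, 17 Rabs were called in the same direction at 6 h and 12 h with no call between these times (32.0% of all tested genes followed that course, beside 34% of the tested Rabs). Among them were Rab14, Rab22a, Rab23, Rab38 and Rab27a. A test that was not passed does not show that the level stood still: every 12 h library lay above every 6 h library for Rab1a and Rab11a, which are among the 17. A further 12 were called at 6 h and in the opposite direction between 6 h and 12 h (28.0% of all tested genes, 24% of Rabs), among them Rab5a, Rab8b, Rab27b, Rab3d and Rab30. The return of Rab27b (-0.44) was not passed without 6 h replicate 3 (-0.35) or 12 h replicate 1 (-0.34) or 3 (-0.38). Another 6 went on in the same direction between 6 h and 12 h (13.4%, and 12% of Rabs): Rab2a, Rab5c, Rab7a, Rab21, Rab24 and Rab32. The further step was small for Rab32 (0.20, adjusted p = 0.048), whose call was lost without any 1 of vehicle replicate 2, the 3 libraries at 6 h and 12 h replicate 2 (0.11 to 0.21), and under limma-voom (0.19), the 2 groups alone (0.20), upper-quartile scaling (0.18) and library totals alone (0.15). The step of Rab21 (0.21) was lost without 6 h replicate 2 (0.23) or 3 (0.18) or 12 h replicate 2 (0.15), and that of Rab2a (0.21) without 6 h replicate 2 (0.24) or 3 (0.15) or 12 h replicate 1 (0.19) or 3 (0.18), and both with library totals alone (0.17). Another 7 were not called at 6 h but were called at 12 h against both vehicle and 6 h (8.42%, and 14% of Rabs): Rab4b, Rab5b, Rab7b, Rab8a, Rab12, Rab20 and Rab31. With upper-quartile scaling Rab5b (-0.26), Rab7b (-0.50), Rab8a (-0.18) and Rab31 (-0.38) passed as lower at 6 h. For Rab4b the step from 6 h (0.32) was not passed without 6 h replicate 2 (0.32) or 3 (0.28) or 12 h replicate 3 (0.25), or with library totals alone (0.28). No test passed for 5 members (10.4%, and 10% of Rabs), and 3 followed another course. The tests share the vehicle and the 6 h libraries, so these courses are not independent counts.

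The ratio of reads between close relatives is taken within a library and does not depend on the scaling. Of 22 pairs of paralogs, 12 changed their ratio by at least 1 on the log2 scale at 6 h and 9 at 12 h, and the PMA and vehicle libraries did not overlap in 17 and 15 pairs. These are descriptions without a test, and no ratios of other gene pairs were taken to set beside the counts. For single genes, which is a different measure, 79.0% and 78.7% did not overlap. Pairs share members, as among Rab8a, Rab8b, Rab10 and Rab13, so they are not independent counts. The 12 and the 9 include Rab9a to Rab9b (1.01 and -1.24), whose PMA and vehicle libraries overlapped at both times. Rab32 had 2.17, 2.64 and 2.54 reads for each Rab38 read in the vehicle libraries, 34.0, 37.7 and 31.6 at 6 h and 38.6, 44.0 and 33.7 at 12 h, a log2 change of 3.81 and 3.98. Rab27a had 0.628, 0.589 and 0.387 reads for each Rab27b read in vehicle, 0.0582, 0.0679 and 0.0594 at 6 h and 0.0873, 0.0433 and 0.0459 at 12 h (-3.08 and -3.23). The Rab40b to Rab40c ratio changed by -5.18 and -4.12, and Rab33a to Rab33b by -2.56 and -2.10. These rest on few reads: without 6 h replicate 3 the 6 h values were -3.83 and -1.49, without 6 h replicate 1 the Rab40b to Rab40c value at 6 h was -5.93, without 6 h replicate 2 the values were -5.80 and -3.17, and without 12 h replicate 1 the 12 h value of Rab40b to Rab40c was -3.50.

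In other pairs the ratio changed at 6 h and had gone part of the way back by 12 h. Rab5a to Rab5b changed by 1.88 at 6 h and 1.07 at 12 h, Rab8a to Rab8b by -1.84 and -1.21, and Rab22a to Rab31 by 1.25 and 0.38. Rab1a to Rab1b was 1.00 at 6 h and 0.11 at 12 h, where it overlapped vehicle. The ratios of Rab11a to Rab11b (-0.042 and 0.028), Rab4a to Rab4b (-0.057 and -0.13) and Rab3a to Rab3d (-0.14 and -0.060) overlapped vehicle at both times.

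**Figure D3:**
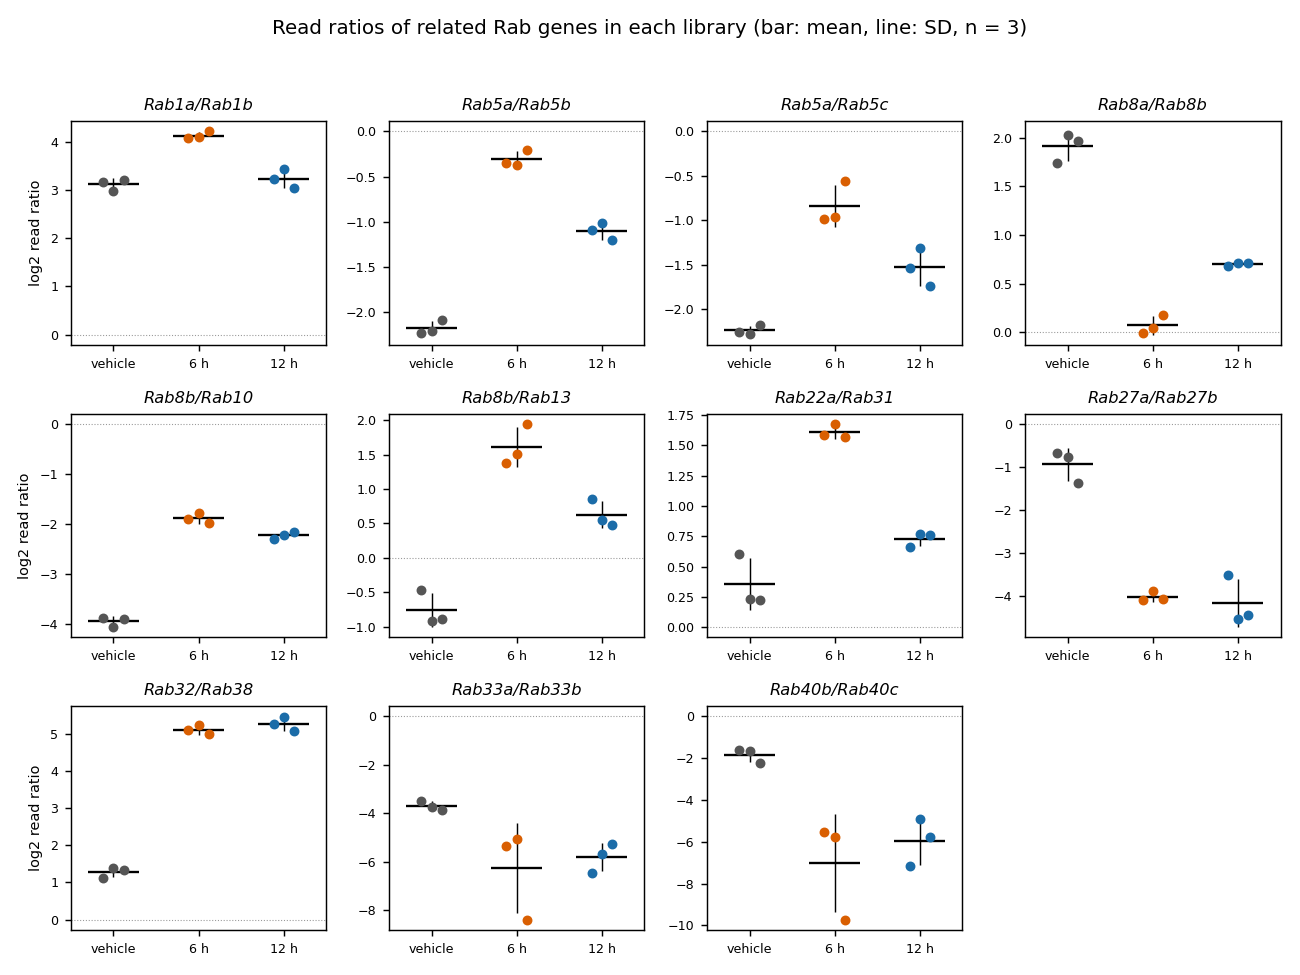
Log2 ratio of reads between 11 pairs of Rab paralogs in each library, taken after adding 0.5 to both counts, in vehicle and after 6 h and 12 h of PMA; points are libraries, bars group means and lines 1 SD. The Rab32 to Rab38 ratio rose by 3.81 and 3.98 and the Rab27a to Rab27b ratio fell by 3.08 and 3.23, without overlap with vehicle.

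The stretches before the start sites of both Rab27 genes, Rab32 and Rab21 are shown because the first pair moved apart and the other genes had the largest rises at 6 h. They are the 250 bases before the annotated start, 5′ to 3′ on the strand of the gene, from RefSeq on GRCr8, while the reads were aligned to rn6. Windows were found for 45 of the 55 members. Capitals mark matches on either strand to 5 searched motifs: TGACTCA (AP-1, whose subunits are known targets of PMA), TGACGTCA (the cyclic AMP response element), CACGTG (the E-box also bound by lysosomal regulators such as TFEB), CCAAT, and GGGCGG (the GC box).
Rab27a, chr8:82663123-82663372, plus strand: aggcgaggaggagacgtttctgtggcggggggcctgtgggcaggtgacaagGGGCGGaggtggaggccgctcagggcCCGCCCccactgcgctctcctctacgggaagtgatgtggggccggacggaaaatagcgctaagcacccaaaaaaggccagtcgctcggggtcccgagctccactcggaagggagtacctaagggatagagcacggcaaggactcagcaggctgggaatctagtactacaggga
Rab27b, chr18:65938584-65938833, minus strand: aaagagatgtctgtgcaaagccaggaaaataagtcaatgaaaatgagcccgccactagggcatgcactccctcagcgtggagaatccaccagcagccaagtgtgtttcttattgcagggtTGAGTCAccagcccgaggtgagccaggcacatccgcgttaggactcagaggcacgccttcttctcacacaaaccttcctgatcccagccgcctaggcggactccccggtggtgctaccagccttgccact
Rab32, chr1:6781259-6781508, minus strand: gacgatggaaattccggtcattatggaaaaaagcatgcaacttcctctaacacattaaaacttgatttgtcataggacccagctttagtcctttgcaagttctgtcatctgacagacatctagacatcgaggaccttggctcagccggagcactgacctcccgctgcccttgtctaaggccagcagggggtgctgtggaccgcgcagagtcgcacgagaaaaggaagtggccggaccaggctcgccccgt
Rab21, chr7:52814944-52815193, minus strand: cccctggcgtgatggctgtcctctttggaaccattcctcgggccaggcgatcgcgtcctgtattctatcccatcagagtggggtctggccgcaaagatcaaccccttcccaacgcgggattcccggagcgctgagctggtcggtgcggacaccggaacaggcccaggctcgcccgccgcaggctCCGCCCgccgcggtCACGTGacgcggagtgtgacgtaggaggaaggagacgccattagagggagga

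Rab27b held an AP-1 match 130 bases before its start, and Rab27a held none of the 5 motifs but GC boxes. Rab32 held no match, and Rab21 held a CACGTG 52 bases before its start beside 1 GC box. AP-1 letters were found for 4 of 45 Rabs (8.89%), beside 4.42% of all 27457 genes with a window and 3.59% of those tested here. The 4 were Rab4b, Rab9a, Rab27b and Rab34, of which Rab34 fell at both times. CACGTG was found for Rab5a, Rab21 and Rab31 (6.67%, beside 6.18% of all genes and 8.47% of the tested genes), CCAAT for 33.3% (36.1% and 36.5%), TGACGTCA for Rab25 alone, and GGGCGG for 77.8% (33.5% and 61.7%). A match is a run of letters and not a measured binding site.

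The genes that serve Rabs were read from lists of 136 entries, of which 103 were found by symbol and 94 tested. At 6 h, 41 were higher and 35 lower, and at 12 h 37 were higher and 40 lower, with medians of 0.00 and -0.04. These shares are near those of all tested genes, 37.8% higher and 39.0% lower at 6 h and 37.7% and 38.2% at 12 h. The counts were, with library totals alone, 23 and 54 at 6 h, and 18 and 62 at 12 h. Of the 8 tested genes that deliver Rabs to membranes or take them off, 6 were higher and 1 lower at 6 h, and 2 were higher and 3 lower at 12 h. Gdi2, a GDP dissociation inhibitor, had a log2 fold change of 0.21 ± 0.08 (adjusted p = 0.027) at 6 h and 0.063 at 12 h, the latter not passed (adjusted p = 0.50). With library totals alone its 6 h value was below 0 (-0.32), and the 6 h call was lost without vehicle replicate 2 (0.19) or 3 (0.19) or 6 h replicate 3 (0.12). Chm and Chml, the Rab escort proteins that present new Rabs for prenylation, rose at 6 h by 0.54 and 1.04. With library totals alone these 6 h values were 0.0011 and 0.51 and did not pass. Under upper-quartile scaling the 6 h call of Chm was lost as well (0.28). At 12 h Chm was 0.20 (adjusted p = 0.20) and Chml fell by 0.65, a call lost without vehicle replicate 1 (-0.57) or 2 (-0.63), 6 h replicate 2 (-0.65) or 12 h replicate 1 (-0.61) or 3 (-0.57). Rabac1, a membrane receptor for Rab and GDI, rose by 0.63 and 0.69, and with library totals alone these values were 0.093 and 0.10 and did not pass. Rabif, which stabilises nucleotide-free Rabs, fell by 1.65 and 1.32, the latter call lost without vehicle replicate 2 (-1.22) or 3 (-1.25) or 12 h replicate 2 (-1.34) or 3 (-1.10).

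Beside those same shares, of 22 tested GEF genes 8 were higher and 8 lower at 6 h, and 8 and 10 at 12 h. St5 (a DENN domain gene) fell from 19.0 ± 0.922 CPM (SD, n = 3) to 1.41 ± 0.0482 at 6 h and was 5.91 ± 1.26 at 12 h (-3.74 ± 0.21, adjusted p = 3.2e-11 and -1.68 ± 0.18, adjusted p = 1.7e-07). Dennd1a and Dennd2d fell by 2.39 and 2.96 at 6 h, and Dennd1c rose from 1.40 ± 0.585 to 12.2 ± 2.87 CPM (3.11 ± 0.27, adjusted p = 1.2e-08). Of 27 tested GAP genes, 12 were higher and 12 lower at 6 h, and 12 and 11 at 12 h. Usp6nl, also called RN-tre and known as a GAP for Rab5 and Rab43, went from 41.5 ± 2.10 CPM in vehicle to 287 ± 13.4 at 6 h and 206 ± 15.5 at 12 h (2.79 ± 0.08, adjusted p = 5.2e-15 and 2.31 ± 0.08, adjusted p = 5.6e-14). Tbc1d31 and Tbck fell by 2.44 and 2.08 at 6 h. Tbc1d10c rose by 3.81 at 6 h on only 73 reads over all libraries, and was 3.21 without vehicle replicate 2 and 4.55 without vehicle replicate 3.

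Of 37 tested effector genes, 15 were higher and 14 lower at 6 h, and 15 and 16 at 12 h. Rab11fip1, an effector of Rab11 and Rab25 in recycling, had the largest rise among these 37 at 6 h. It had 37.2, 40.8 and 48.6 CPM in the vehicle libraries, 438, 429 and 450.5 CPM at 6 h and 285, 287 and 298 CPM at 12 h, a log2 fold change of 3.38 ± 0.09 (adjusted p = 2.9e-15) and 2.78 ± 0.09 (adjusted p = 2.4e-14). Sytl3, a Rab27 effector, rose by 2.92 at 6 h from 0.172 ± 0.155 CPM, and by 3.51 without vehicle replicate 2. Rims1, a Rab3 effector of the synaptic active zone, had 107 reads in vehicle, none at 6 h and 1 at 12 h. Against a floor of 3 counts over the group it was at least 24.8-fold lower at 6 h; at 12 h the ratio was 65.6, with an exact 95% counting interval of 11.5 to 2614. Kif20a, a Rab6-binding kinesin that is also a mitotic gene, fell by 3.56 at 6 h and by 2.97 without vehicle replicate 3; the G2 and mitosis genes it belongs with varied between the vehicle libraries, and their part in this fall was not tested.

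**Figure D4:**
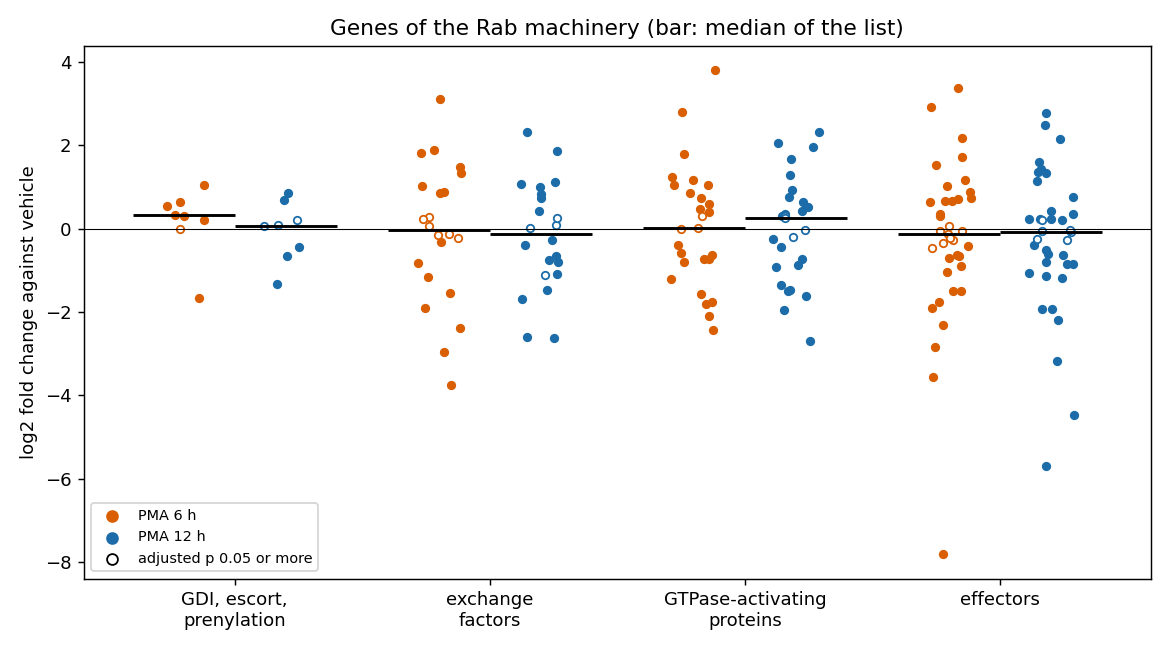
Log2 fold change against vehicle of the 94 tested genes that serve Rabs at 6 h and at 12 h of PMA, by list: delivery (8), GEF (22), GAP (27) and effector (37); points are genes, open where the test was not passed, and bars the list medians. The lists spread to both sides of 0, and the lowest point is Rims1, which has no read at 6 h, so that its plotted value depends on the fit's prior count.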

How the data were processed

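RNA of 9 libraries was sequenced, and for each the authors deposited a STAR count table with 1 unstranded column and 1 column per strand. Per the submitters' processing notes, reads were aligned to rn6 with STAR 2.7.5b, and DESeq2 was used. The gene annotation was not given in the sources used here. The deposited unstranded counts were used, so reads on overlapping genes or several places are not counted, and near-identical copies can lose reads. The strand columns entered 1 alternative, chosen after seeing the data. A deposited series table with 9 columns that matched no sample label was not used. Groups and replicate numbers come from the sample titles.

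Counts were filtered with filterByExpr (minimum count 10; 10128 of 17315 genes kept), scaled by TMM and tested with edgeR 4.0.16 (R 4.3.3) by the quasi-likelihood test over all 9 libraries, with Benjamini-Hochberg adjustment over all tested genes and a threshold of 0.05. The members and gene lists were chosen with earlier results of these data known. Values by library are given for called members with a log2 change of at least 1 against vehicle, at most 20. For each list of genes that serve Rabs, the 4 called genes with the largest change at 6 h are named, as are Gdi2 and both escort proteins. Some items are not reported here. Alternatives were RLE and upper-quartile scaling, no scaling, no filter, the replicate number as a block, each pair of groups alone, limma-voom (limma 3.58.1), DESeq2 1.42.0 and leaving out each library. Replicates of a group differed by more than sampling noise (chi-square per degree of freedom 3.88 to 27.8), so none was counted as a copy. On simulated data for 6 h against vehicle with 9943 genes, 86% of 100 genes changed by 1 on the log2 scale and 95% of 100 changed by 2 were recovered, with 13 false calls. Only those genes were changed, as many up as down, whereas 76.8% of tested genes were called in the data. The simulation therefore could not test the scaling. Counting intervals and floors cover counting error only.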

Additional observations from a re-analysis of the deposited data

How the results depend on the processing

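The scaling moved the counts most. With library totals alone, 14 Rabs were higher and 26 lower at 6 h, and 14 higher and 20 lower at 12 h; of the genes that serve Rabs, 23 were higher and 54 lower at 6 h, and 18 and 62 at 12 h. With upper-quartile scaling 20 Rabs were lower at 6 h. Library totals alone turned the direction at 6 h of Rab2a (-0.0048), Rab5c (-0.065), Rab25 (-0.18), Gdi2 (-0.32), Rab4b (-0.41), Rab4a (-0.46), Rab8a (-0.46) and Rab18 (-0.48). At 12 h they turned that of Rab33b (-0.069), Rab35 (-0.10), Rab5b (-0.12), Rab4b (-0.13), Rab8a (-0.20), Rab25 (-0.20), Rab6a (-0.22), Rab4a (-0.26), Rab28 (-0.31), Chm (-0.37), Rab13 (-0.38), Rab40c (-0.43), Gdi2 (-0.52) and Rab18 (-0.57). Upper-quartile scaling turned Gdi2 (-0.044), Rab8a (-0.18) and Rab18 (-0.20) at 6 h, and Rab28 (-0.0050), Gdi2 (-0.21) and Rab18 (-0.26) at 12 h. Beside those that turned, Rabs gained calls as lower. Upper-quartile scaling gave such calls at 6 h to Rab5b (-0.26), Rab31 (-0.38), Rab10 (-0.40), Rab7b (-0.50) and Rab39a (-2.08), and at 12 h to Rab10 (-0.40). Library totals alone gave them at 6 h to Rab5b (-0.54), Rab20 (-0.57), Rab29 (-0.57), Rab2b (-0.66), Rab31 (-0.67), Rab10 (-0.68), Rab7b (-0.78) and Rab39a (-2.36). At 12 h they gave them to Rab2b (-0.67) and Rab10 (-0.71). These scalings lower every PMA value by about the shift of the median gene. Leaving out 1 library at a time gave 22 to 24 higher and 11 to 14 lower Rabs at 6 h, 30 to 33 and 10 to 12 at 12 h, and 14 to 19 and 6 to 7 between 6 h and 12 h. Deviations of same-numbered libraries from their group means were little correlated (-0.11 to 0.027). With 3 libraries in a group this does not settle whether the replicate numbers pair them. With the replicate number as a block, 22 Rabs were higher and 12 lower at 6 h, and 33 and 11 at 12 h. Between the times it was 17 and 7, where Rab32 lost its call. Rab15 lost its call at 6 h against vehicle. Of the genes that serve Rabs it was 40 and 34, 33 and 36, and 17 and 24. For paralog pairs the block asked only that each PMA library differ in the same direction from the same-numbered vehicle library. This held for 17 pairs at 6 h and 17 at 12 h. It is a looser criterion than no overlap, which 17 and 15 pairs met. No called Rab difference changed direction under RLE, limma-voom, DESeq2, no filter, the 2 groups alone, the strand sum or the left-out libraries. Depth limits members under about 3 CPM (Rab3a at 6 h, and Rab9b, Rab17, Rab30, Rab33a, Rab39a and Rab40b under PMA), where 1 library moved the value or the call. Rab27a was also under 3 CPM under PMA, and no left-out library changed its calls.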
